A study of Mus musculus with 8 samples.

Results

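The genes described here are the nuclear genes that encode the subunits of oxidative phosphorylation. They were chosen by symbol alone: names that begin with Ndufa, Ndufb, Ndufc, Ndufs, Ndufv, Uqcr, Atp5, Cox4, Cox5, Cox6, Cox7 or Cox8, with Sdha, Sdhb, Sdhc, Sdhd and Cyc1, without pseudogenes and without the Ndufaf assembly factors. The table listed 86 such names, and 82 of them had values in all 8 libraries and a mean value of at least 1, of 13959 genes that met the same limits. Of the other 4, Cox8c (mean 0.413), Cox4i2 (0.330) and Cox6a2 (0.181) had values below that mean, and Cox8b was listed without values. The lowest gene inside the limit was Cox7b2, with a mean of 1.44. By the complex to which each product belongs, 36 were genes of complex I, 4 of complex II, 9 of complex III, 14 of complex IV and 15 of complex V. The remaining 4 (Cox7a2l, Ndufa4l2, Atp5s and Atp5sl) carry a family symbol but are not subunits of 1 complex.

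RNA was sequenced from E14 mouse embryonic stem cells of strain 129/Ola in 8 libraries, 2 in each of 4 groups. The line called GSK3α here lacks its own Gsk3a, which encodes the protein kinase GSK3α, and carries a transgene for the mutant GSK3α-L195G. The line called GSK3β lacks the paralog Gsk3b and carries a transgene for GSK3β-L132G. Such a change widens the ATP pocket of a kinase, so that the bulky inhibitor 3MB-PP1 can enter it. The cells of all 8 libraries had been kept for 6 h in serum-free N2B27 medium, and in 2 groups 5 µM 3MB-PP1 was present for 2 h. The comparisons ask which genes each kinase controls within 2 h, and how the lines differ without inhibitor. Each kinase is represented by 1 line named as a numbered clone, so the kinase and the clone cannot be told apart. The labels name no vehicle for the untreated cells, no line without a mutant kinase, no promoter for the transgene and no change to the second paralog. They also do not say whether the 2 libraries of a group were separate cultures, so every p-value measures the spread between these libraries only.

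Oxidative phosphorylation passes electrons from NADH (complex I) and succinate (complex II) through complex III and cytochrome c to oxygen at complex IV, and the protons pumped on the way drive ATP synthesis at complex V. Most subunits are encoded in the nucleus and must be matched with a few encoded in mitochondrial DNA, and several complex IV subunits exist as a ubiquitous and a tissue-restricted isoform. Naive embryonic stem cells use both respiration and glycolysis.

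From 21.5 to 32.4 M reads per library were assigned to genes, as estimated from the smallest value of each library. The values are gene counts that the authors scaled between libraries, and fold changes below are differences of log2(value + 1). All 8 embryonic stem cell markers had values, with summed levels of 6085 to 6311. Within this narrow range single markers differed in both directions. Zfp42 stood at 739 to 780 in the GSK3α line and 575 to 616 in the GSK3β line, and Nanog at 826 to 855 and 868 to 987. In the GSK3β line Klf4 had 127.8 and 127.9 untreated and 197 and 189 treated. Tdgf1 had 557 and 517 untreated and 451 and 455 treated there. The summed levels of the other marker lists were 10.7 to 15.5 for fibroblasts (4 of 8 genes with values, none for Col3a1, Dcn, Postn and Lum), 10.3 to 12.1 for primitive endoderm, 35.5 to 49.1 for trophoblast, 148 to 228 for neural genes and 8.51 to 14.3 for striated muscle. Between the lines the trophoblast sum did not overlap (35.5 to 37.96 in the GSK3α line, 47.4 to 49.1 in the GSK3β line), nor did those of fibroblasts (10.7 to 12.2 and 14.2 to 15.5), primitive endoderm (11.3 to 12.1 and 10.3 to 10.9) and striated muscle (11.4 to 14.3 and 8.51 to 10.1). Not every gene followed the sum of its list. Of the fibroblast genes Thy1 stood at 7.56 to 9.34 in the GSK3α line and 11.2 to 12.4 in the GSK3β line, whereas Col1a1, Col1a2 and Pdgfra overlapped. Of the trophoblast genes Krt8 (30.6 to 32.8 and 38.3 to 41.6), Gata3 and Hand1 were higher in every GSK3β library, whereas Krt7 and Cdx2 overlapped. Tnnt2 of striated muscle stood at 0.400 to 0.553 in the GSK3α line and 0.705 to 0.890 in the GSK3β line. Dab2 of primitive endoderm stood at 2.31 to 3.06 and 2.95 to 3.79. The part of these sums in the line differences below was not tested. The neural sum was 148 to 168 in the other groups and 220 to 228 in the treated GSK3β cells, through Tubb3 and Nes. Sox1 (3.33 and 3.30) and Neurod1 (5.91 and 6.40) were lower in the treated GSK3β libraries than in any other, and Pax6 overlapped the other groups. The part of the neural sum in the inhibitor results below was not tested. Gsk3a stood at 141 to 160 in the GSK3α line and 76.2 to 79.9 in the GSK3β line, and Gsk3b at 52.7 to 58.2 and 235 to 258, so each line had the higher level of the kinase it was built with. The 37 mitochondrially encoded genes were listed without values, so the partners of these subunits were not analysed here. Of the 82 genes 13 overlap a protein-coding gene in the RefSeq annotation, and many are known to have processed copies elsewhere. The sources used here give neither the strand setting nor the treatment of reads that fit several copies. In bulk RNA, fewer cells with a transcript and less of it per cell cannot be told apart.

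Genes of oxidative phosphorylation were strongly expressed and differed in level by complex. Their summed values made up 1.28 to 1.38% of a library. Per kilobase of transcript, 79 of the 82 lay above the median of all tested genes that had a transcript length (8.23). The median value per kilobase was 70.1 for complex I, 74.0 for complex II, 167 for complex III, 240.5 for complex IV and 250.1 for complex V. Atp5b, the catalytic β subunit of ATP synthase, had the highest level (1098 per kilobase), followed by Cox4i1 (563) and Cox8a (538) of complex IV. Among complex I genes the level ran from 11.1 per kilobase for Ndufb2 to 233 for Ndufb8. These levels rest on annotated transcript lengths, and a gene whose main transcript is shorter than the annotated one is placed too low.

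**Figure D1:**
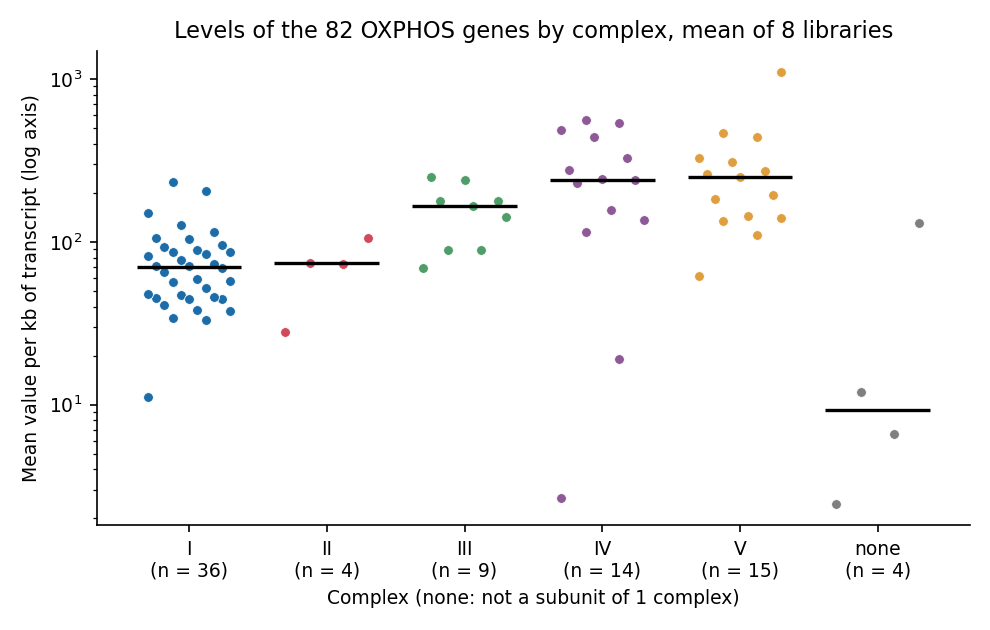
Mean value per kilobase of transcript over the 8 libraries (log axis) for each of the 82 genes, grouped by complex, with each complex's median as a black bar. The medians rise from 70.1 in complex I to 250.1 in complex V, and the lowest points of complex IV are the tissue-restricted isoforms Cox7b2 and Cox7a1.

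In the deposited scaling, the summed level of each complex differed little between groups, by at most 1.08-fold between the untreated lines. In complex I the libraries summed to 2615 and 2690.3 in untreated and 2745 and 2656 in treated GSK3α cells, and to 2669 and 2586 in untreated and 2580 and 2592 in treated GSK3β cells. The groups compared overlapped, apart from the treated cells of the 2 lines. For complexes II, III and IV the lines did not overlap, with or without inhibitor. Untreated, the sums were 500.1 and 501 against 534 and 526 in complex II, and 1214 and 1232 against 1293 and 1279 in complex III (GSK3α against GSK3β). In complex IV they were 2299 and 2365 against 2564 and 2459. The lines overlapped in complex V. With inhibitor over without, the sums stood at ratios of 1.01 to 1.02 for complexes I to V in the GSK3α line and 0.984 to 1.002 in the GSK3β line. Between the untreated lines (GSK3β over GSK3α) the ratio was 0.990 for complex I, 1.06 for complex II, 1.05 for complex III, 1.08 for complex IV and 1.004 for complex V. All values together summed to 954722 and 965859 in the untreated GSK3α libraries and to 929253 and 925213 in the untreated GSK3β libraries. With libraries scaled to the same sum, each of these ratios would therefore be higher. In complex IV, where the mean sum was 2332 ± 46.6 in the GSK3α line and 2511 ± 74.0 in the GSK3β line (SD, n = 2), Cox7b alone went from 173 ± 0.66 (SD, n = 2) to 308 ± 12.8 (SD, n = 2).

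Promoters of these genes were searched for letters bound by factors known to act on respiratory genes. RefSeq promoters (GRCm38.p6, 250 bases before to 50 after the start) were at hand for 69 of the 82. On either strand, GCATGCGC, a site of the activator NRF1, stood in 14.5% of them against 3.05% of the promoters of all 27025 genes in that table. CCGGAAG, a site of ETS factors such as GABPA, stood in 23.2% against 9.93%. AAGATGG, a YY1 site, stood in 17.4% against 7.28%, and CAAGGTCA, a site of the ESRR receptors, in 5.8% against 1.76%. The ETS letters were found in 5 of 14 promoters of complex V and 4 of 32 of complex I, and the YY1 letters in 7 of 32 of complex I and none of 8 of complexes II and III. A match describes the letters only. The comparison set holds all genes of that table, expressed in these cells or not, whereas the 82 had passed a limit on their level. Promoters of the tested genes alone were not compared, so the excess cannot be called particular to respiratory genes.

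The promoters shown, from 150 bases before to 30 after the start, belong to a selection of the genes named below. Cox7b and Ndufa8 were higher in the GSK3β line. Cox5a, Atp5e and Cox7c changed with the inhibitor there, and the inhibitor change of Ndufs3 differed between the lines. Each promoter is written 5′ to 3′ on the strand of its gene, with the letters of the searched sites or their reverse complement in capitals. Ndufa8 holds the NRF1 letters, Atp5e the ETS letters once, Ndufs3 the ETS letters on each strand, and Cox7c the YY1 letters. Cox7b and Cox5a hold none of the 4. The same windows of Cox7b2, Cox7a1, Ndufa12, Cox6b2, Ndufb8, Ndufv3, Ndufc2 and Uqcrfs1, not shown, hold none either. The selection shown is therefore richer in matches than the named genes as a whole. The windows are chrX:106015550-106015729 on the forward strand for Cox7b, chr2:36049309-36049488 on the reverse strand for Ndufa8, chr9:57521082-57521261 on the forward strand for Cox5a, chr2:90904692-90904871 on the reverse strand for Ndufs3, chr2:174464072-174464251 on the reverse strand for Atp5e and chr13:86046766-86046945 on the reverse strand for Cox7c.
Cox7b: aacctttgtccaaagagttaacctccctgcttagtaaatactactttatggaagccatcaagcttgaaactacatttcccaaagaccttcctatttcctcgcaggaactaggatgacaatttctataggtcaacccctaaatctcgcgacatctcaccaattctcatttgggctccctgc
Ndufa8: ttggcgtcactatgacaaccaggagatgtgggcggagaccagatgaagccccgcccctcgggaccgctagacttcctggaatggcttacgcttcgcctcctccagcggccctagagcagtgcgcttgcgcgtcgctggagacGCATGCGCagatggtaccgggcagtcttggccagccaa
Cox5a: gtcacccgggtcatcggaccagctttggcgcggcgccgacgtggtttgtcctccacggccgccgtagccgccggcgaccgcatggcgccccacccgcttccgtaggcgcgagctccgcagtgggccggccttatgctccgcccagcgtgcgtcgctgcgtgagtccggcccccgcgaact
Ndufs3: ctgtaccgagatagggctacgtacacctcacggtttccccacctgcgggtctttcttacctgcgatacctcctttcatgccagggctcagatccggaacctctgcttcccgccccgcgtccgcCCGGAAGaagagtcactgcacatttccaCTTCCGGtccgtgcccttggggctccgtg
Atp5e: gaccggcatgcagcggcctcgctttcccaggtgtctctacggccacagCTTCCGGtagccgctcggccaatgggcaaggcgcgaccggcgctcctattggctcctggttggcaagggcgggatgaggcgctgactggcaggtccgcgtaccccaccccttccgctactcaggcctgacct
Cox7c: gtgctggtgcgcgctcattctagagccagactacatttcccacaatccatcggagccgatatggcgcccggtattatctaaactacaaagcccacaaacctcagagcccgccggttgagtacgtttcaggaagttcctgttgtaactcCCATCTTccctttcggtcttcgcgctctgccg

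The untreated lines differed in 37 of the 82 genes. In the GSK3β line 23 were higher and 14 lower at an adjusted p below 0.05 (limma, Benjamini-Hochberg over all tested genes, n = 2 in each group), which is 45.1%. Among all tested genes 48.2% passed (22.3% higher, 25.9% lower), so the share was close to the background in the deposited scaling. The median log2 difference was 0.05, against -0.02 for all tested genes. By complex, 9 were higher and 5 lower of 36 in complex I, 3 and 1 of 4 in complex II, 4 and 1 of 9 in complex III, 5 and 3 of 14 in complex IV, and 2 and 2 of 15 in complex V, and 2 of the other 4 genes were lower. The split moved with the scaling: 39 higher and 10 lower with libraries scaled to the same sum (59.8%, against 48.9% of all tested genes), and 32 and 11 with quantile normalization (52.4% against 47.9%).

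In separate libraries, the treated cells of the lines differed in 42 of the 82 genes, 21 higher and 21 lower in the GSK3β line (51.2%; background 49%, with 21.2% higher and 27.7% lower). The median log2 difference was -0.01, against -0.03 for all tested genes. With libraries scaled to the same sum the split was 26 and 17 (52.4% against 48.9%). In both comparisons 32 genes passed, 18 higher and 14 lower in each, all with the same sign. They were 86.5% of the calls without inhibitor and 76.2% of those with it. For all tested genes, the calls shared with the same sign were 68.8% and 67.7%. Of the 32, 8 differed by more than 1.2-fold in both comparisons: Cox7b2, Cox7b and Cox7a1 were higher, and Ndufa4l2, Cox6b2, Ndufb8, Ndufv3 and Ndufc2 lower. The same count was not made over all tested genes, so it cannot be called particular to the members.

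**Figure D2:**
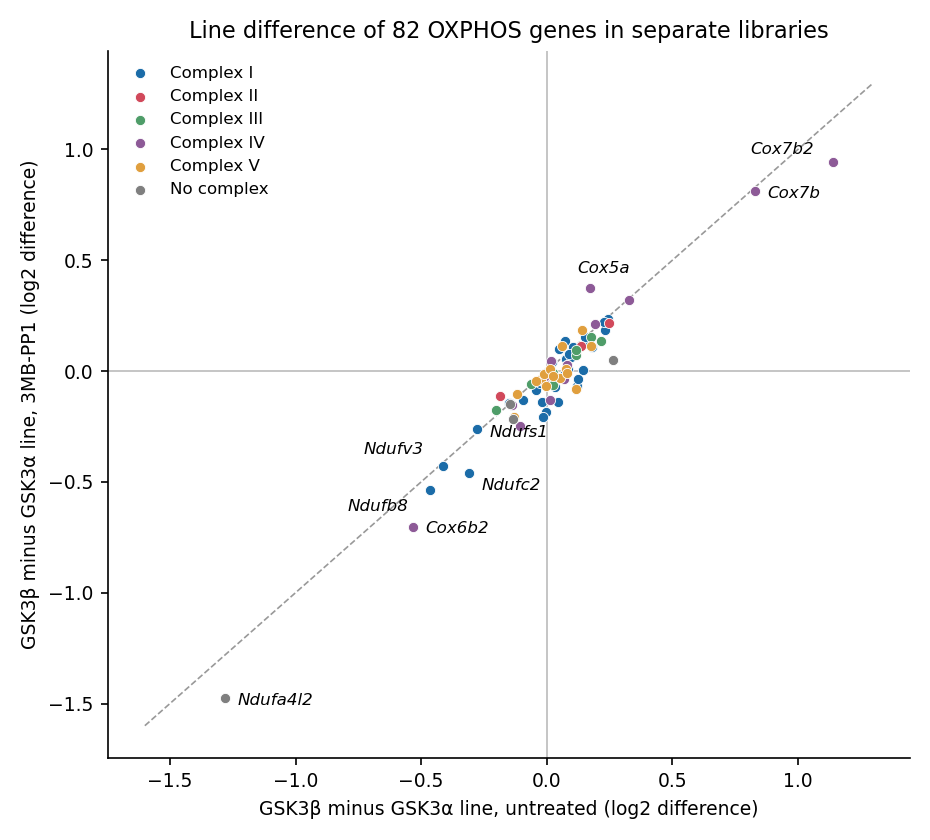
Log2 difference of each of the 82 genes between the GSK3β and the GSK3α line in untreated cells (x axis) and in cells with 3MB-PP1 (y axis), coloured by complex, with the dashed line marking equal differences. Most points lie near 0 in both, Cox7b2 and Cox7b lie at the upper right, and Ndufa4l2 and Cox6b2 at the lower left.

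In complex I, the NADH dehydrogenase, 5 subunits were lower in the untreated GSK3β line, among them the 4 with the largest differences of the complex. Ndufb8, an accessory subunit of the membrane arm, had values of 177 and 184 in the untreated and 197 and 184 in the treated GSK3α libraries, and 130.4 and 131 in the untreated and 129 and 133 in the treated GSK3β libraries. The lines did not overlap, and the log2 difference was -0.46 ± 0.0367 (SE, limma adjusted p = 6.97e-09) without and -0.54 ± 0.0367 (SE, limma adjusted p = 8.54e-10) with inhibitor. Ndufv3, an accessory subunit of the NADH-oxidising module, had 56.3 and 62.0 in the untreated and 63.1 and 60.6 in the treated GSK3α libraries, and 44.5 and 43.6 in the untreated and 47.7 and 43.7 in the treated GSK3β libraries. Every GSK3β library was below every GSK3α library, with log2 differences of -0.41 (adjusted p = 2.27e-06) and -0.43 (adjusted p = 1.44e-06, limma). Ndufc2, of the membrane arm, had 64.7 and 59.8 in the untreated and 66.6 and 62.5 in the treated GSK3α libraries, and 52.1 and 48.1 in the untreated and 44.7 and 48.5 in the treated GSK3β libraries. Its log2 difference was -0.31 without and -0.46 with inhibitor, and the lines again did not overlap. Ndufs1, the largest iron-sulfur subunit of the core, had 211 and 210.0 in the untreated and 205 and 207 in the treated GSK3α libraries, and 176 and 172 in the untreated and 167 and 177 in the treated GSK3β libraries, a log2 difference of -0.28 and -0.26. The last of the 5 was Ndufa3, at -0.15 and -0.15.

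The 9 complex I genes that were higher in the untreated GSK3β line differed by at most 0.24 (Ndufa12) on the log2 scale. Ndufa12, which docks on the matrix arm late in assembly, had 37.7 and 37.0 in the untreated and 38.5 and 39.5 in the treated GSK3α libraries, and 43.6 and 45.2 in the untreated and 46.6 and 45.6 in the treated GSK3β libraries. Ndufa2, an accessory subunit of the matrix arm, had 39.9 and 40.1 in the untreated and 43.4 and 40.4 in the treated GSK3α libraries, and 47.7 and 46.7 in the untreated and 48.2 and 47.2 in the treated GSK3β libraries. Ndufa8, a membrane-arm subunit facing the intermembrane space, had 44.97 and 46.1 in the untreated and 45.9 and 44.7 in the treated GSK3α libraries, and 54.8 and 52.2 in the untreated and 51.9 and 54.1 in the treated GSK3β libraries. For these 3 genes no library of one line reached the range of the other, with log2 differences of 0.24 and 0.23, 0.23 and 0.18, and 0.23 and 0.22 without and with inhibitor. With inhibitor 3 of the 7 core subunits, the conserved part of the matrix arm, were lower (Ndufs1, Ndufs3 at -0.21 and Ndufv1 at -0.14) and none was higher. These were 42.9% of the core, against 51.7% of the accessory subunits and 49% of all tested genes (27.7% lower). Untreated, 1 core subunit was higher and 1 lower.

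All 4 genes of complex II, succinate dehydrogenase, differed between the untreated lines, but not in 1 direction. Sdhc, a membrane anchor that binds ubiquinone, had 81.4 and 82.6 in the untreated and 79.6 and 81.0 in the treated GSK3α libraries, and 99.6 and 95.7 in the untreated and 92.6 and 94.1 in the treated GSK3β libraries. It was higher in the GSK3β line, with a log2 difference of 0.25 ± 0.0358 (SE, limma adjusted p = 1.42e-05) without and 0.21 with inhibitor, with no overlap. Sdhd, the second anchor, stood at 0.14 and 0.11, and Sdha, the flavoprotein, at 0.08 and, without passing, 0.03. Sdhb, the iron-sulfur subunit between them, was lower, at -0.18 and -0.11. In complex III, cytochrome c1 (Cyc1) had 195 and 200.3 in the untreated and 212 and 208 in the treated GSK3α libraries, and 228 and 232 in the untreated and 228 and 233 in the treated GSK3β libraries, a log2 difference of 0.22 and 0.14. Uqcr10, Uqcrq and Uqcrc2 were higher in untreated GSK3β cells by 0.17, 0.12 and 0.12, and Uqcr11, a small accessory subunit, was lower, at -0.20.

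Complex IV, cytochrome c oxidase, held the largest difference of any abundant subunit. Cox7b, a small structural subunit encoded at chrX:106015700-106022450 (GRCm38.p6), had 174 and 173 in the untreated and 177 and 167 in the treated GSK3α libraries, and 317 and 299 in the untreated and 297 and 306 in the treated GSK3β libraries. Every GSK3β library lay far above every GSK3α library, 1.77-fold without inhibitor (log2 difference 0.83 ± 0.0353 (SE, limma adjusted p = 1.21e-12)) and 1.75-fold with it (0.81 ± 0.0353 (SE, limma adjusted p = 1.77e-12)). Cox7b2, its testis-enriched isoform, moved the same way at a very low level, with 0.890 and 0.595 in the untreated and 0.405 and 0.435 in the treated GSK3α libraries, and 2.97 and 2.69 in the untreated and 1.32 and 2.21 in the treated GSK3β libraries. The lines did not overlap, at 1.14 ± 0.159 (SE, limma adjusted p = 1.01e-05) and 0.94 ± 0.159 (SE, limma adjusted p = 7.9e-05).

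The second testis-enriched isoform went the other way. Cox6b2 had 72.6 and 76.4 in the untreated and 77.8 and 80.1 in the treated GSK3α libraries, and 51.8 and 50.6 in the untreated and 47.6 and 48.6 in the treated GSK3β libraries. It was lower in the GSK3β line, with log2 differences of -0.53 ± 0.0406 (SE, limma adjusted p = 4.13e-09) without and -0.70 ± 0.0406 (SE, limma adjusted p = 7.48e-11) with inhibitor, with no overlap. Its ubiquitous partner Cox6b1 had 142 and 151 in the untreated and 152 and 148 in the treated GSK3α libraries, and 147 and 149 in the untreated and 159 and 151 in the treated GSK3β libraries, with overlapping lines and log2 differences of 0.02 (adjusted p = 0.743) and 0.04 (adjusted p = 0.333; limma). Per kilobase the level was 114 for Cox6b2 and 242 for Cox6b1, so this isoform was abundant in these stem cells. The mean level per kilobase was 18.9 for Cox7a1 against 136 for its partner Cox7a2, and 2.66 for Cox7b2 against 238 for Cox7b.

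Cox7a1, the isoform of heart and skeletal muscle, had 6.18 and 6.38 in the untreated and 6.69 and 6.70 in the treated GSK3α libraries, and 7.94 and 8.33 in the untreated and 9.37 and 7.93 in the treated GSK3β libraries. It was higher in the GSK3β line by 0.33 (adjusted p = 0.0075) and 0.32 (adjusted p = 0.00812, limma). The striated muscle markers summed to 11.4 to 14.3 in the GSK3α line and 8.51 to 10.1 in the GSK3β line. Cox7a2 had 87.8 and 87.4 in the untreated and 91.9 and 89.8 in the treated GSK3α libraries, and 94.1 and 89.9 in the untreated and 90.7 and 86.4 in the treated GSK3β libraries, and neither comparison passed (0.07 and -0.04). The muscle isoforms Cox6a2 and Cox8b, the lung isoform Cox4i2 and the testis isoform Cox8c were not members, and the highest value of Cox6a2, Cox4i2 or Cox8c in any library was 0.510. Their partners were abundant. Cox4i1 had 381 and 412 in the untreated and 406 and 383 in the treated GSK3α libraries, and 455 and 449 in the untreated and 468 and 446 in the treated GSK3β libraries, higher in the GSK3β line by 0.19 and 0.21. Cox6a1 had 192 and 196 in the untreated and 202 and 195 in the treated GSK3α libraries, and 180.0 and 173 in the untreated and 179 and 177 in the treated GSK3β libraries, lower, at -0.14 and -0.15. Cox8a had 304 and 306 in the untreated and 327 and 318 in the treated GSK3α libraries, and 292 and 276 in the untreated and 267 and 277 in the treated GSK3β libraries, lower, at -0.10 and -0.25. All 6 of these differences passed.

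Ndufa4, once assigned to complex I and now counted as a complex IV subunit, had 149 and 149.8 in the untreated and 151 and 143 in the treated GSK3α libraries, and 153 and 144 in the untreated and 144 and 145 in the treated GSK3β libraries, and its lines overlapped. Its relative Ndufa4l2, a gene known to be induced in hypoxia, had 10.2 and 10.1 in the untreated and 8.24 and 8.62 in the treated GSK3α libraries, and 3.83 and 3.37 in the untreated and 2.25 and 2.53 in the treated GSK3β libraries. This was the largest of the 82 line differences, -1.28 ± 0.1 (SE, limma adjusted p = 5.87e-09) without and -1.48 ± 0.1 (SE, limma adjusted p = 7.34e-10) with inhibitor. Ndufa4l2 overlaps Shmt2 in the annotation, so reads of the pair cannot be told apart without strand. Shmt2 itself did not pass between the untreated lines (0.09, adjusted p = 0.0770) and was higher in treated GSK3β cells (0.25, limma adjusted p = 4.49e-05). The supercomplex factor Cox7a2l was lower in the GSK3β line, at -0.15 and -0.15.

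Complex V, ATP synthase, differed least in untreated cells, with 4 of 15 genes past the threshold. Atp5g3 and Atp5g1, which encode the same c subunit of the rotor ring, were higher in the GSK3β line by 0.17 and 0.14, and the third c gene, Atp5g2, did not pass (-0.00). Atp5l, a small membrane subunit, and Atp5d, the δ subunit of the rotor stalk, were lower, at -0.13 and -0.12. The catalytic pair had nearly constant levels: Atp5b ranged from 2060.1 to 2154 and Atp5a1 from 1129 to 1173 over all 8 libraries. For Atp5b the log2 difference between the untreated lines was -0.01 (95% interval -0.08 to 0.05).

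**Figure D3:**
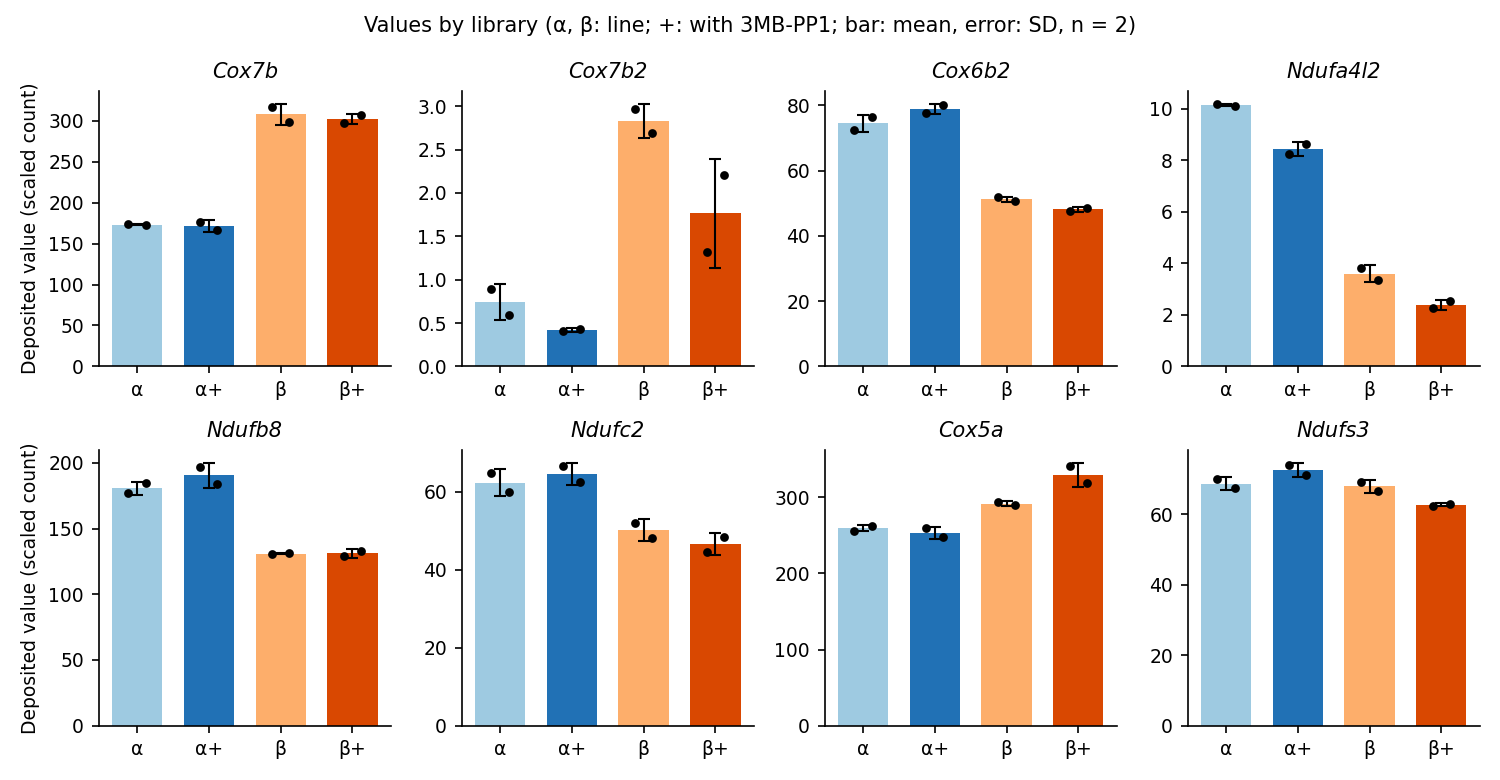
Deposited value of 8 genes in each library (points), with the mean (bar) and SD (error bar, n = 2), in the GSK3α (blue) and GSK3β (orange) lines, untreated (light) and with 3MB-PP1 (dark, marked +). Cox7b and Cox7b2 are higher and Cox6b2, Ndufa4l2, Ndufb8 and Ndufc2 lower in the GSK3β line, and the 2 treated GSK3β libraries have the highest values of Cox5a.

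Several of the large line differences lay in stretches of the genome where other genes differed alike. Around Cox7b, 12 other tested genes start within 1 Mb, and 9 of them were higher and none lower in untreated GSK3β cells, with a median log2 difference of 0.56. Among them Magt1 stood at 0.91 and Atrx at 0.61. Around Ndufb8, at chr19:44548571-44555442, 21 of 24 such neighbours were lower and 1 higher, with a median of -0.53, close to the -0.46 of Ndufb8. One of the neighbours, Cox15, which makes the heme A of complex IV, was lower too, at -0.52. Around Ndufc2, at chr7:97400003-97407800, 10 of 15 were lower and none higher, with a median of -0.43. In treated cells the medians were 0.64, -0.52 and -0.50.

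Around Cox6b2, Ndufv3, Ndufa4l2 and Cox5a the neighbours differed in both directions, with a median near 0. The median over neighbours was 0.02 for Cox6b2 (30 genes), -0.05 for Ndufv3 (24), -0.03 for Ndufa4l2 (52) and -0.02 for Cox5a (35) in untreated cells. Higher and lower neighbours numbered 5 and 7 for Cox6b2, 6 and 8 for Ndufv3, 9 and 19 for Ndufa4l2, and 4 and 12 for Cox5a. For Ndufs1 the median over neighbours was -0.34 without and 0.02 with inhibitor (8 genes), while Ndufs1 stayed at -0.28 and -0.26. For Sdhb it was -0.25 and -0.23 (29 genes), and Sdhb itself stood at -0.18 and -0.11. Across the 78 members with at least 3 neighbours, the member's difference and the neighbours' median had a Pearson r of 0.455 and a Spearman rho of 0.268, which describes genes within the same libraries, and the values over 12993 tested genes were 0.445 and 0.261. By chromosome, the median difference of tested genes was -0.19 on chromosome 19, home of Ndufb8, Cox8a, Ndufv1 and Ndufs8, and 0.21 on the X chromosome, home of Cox7b, Ndufa1 and Ndufb11. The autosomes apart from 19 had medians between -0.08 and 0.06. The largest median was that of the Y chromosome, where 9 genes were tested and no member lies, at 2.44 without and 2.29 with inhibitor. These positional values were computed after the line differences had been seen. What makes neighbours differ alike was not tested.

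**Figure D4:**
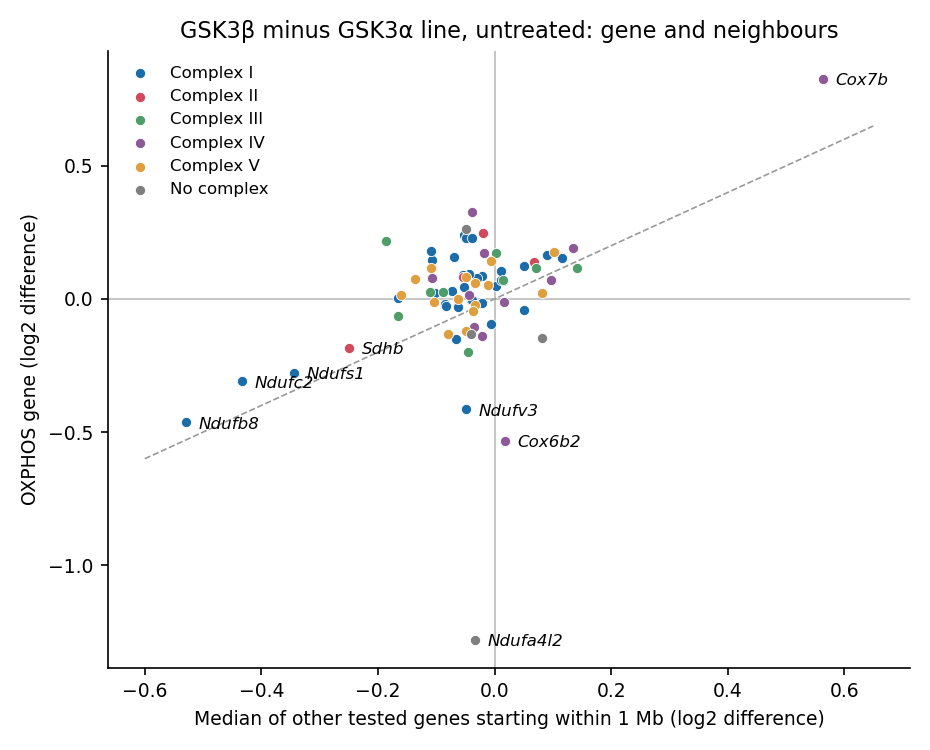
Log2 difference between the untreated lines (GSK3β minus GSK3α) of each of 78 of the 82 genes (y axis) against the median difference of the other tested genes that start within 1 Mb of it (x axis), coloured by complex, with the dashed line marking equality. Cox7b, Ndufb8 and Ndufc2 lie far from 0 on both axes, whereas Ndufa4l2, Cox6b2 and Ndufv3 lie near 0 on the x axis.

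After 2 h of 3MB-PP1, none of the 82 genes passed the test in the GSK3α line. Among all tested genes 0.881% passed there (0.265% higher, 0.616% lower). At an unadjusted p below 0.05 there were 5, the smallest limma adjusted p was 0.254 (n = 2 in each group), and limma-voom and limma without a trend also called 0. The log2 changes ran from -0.29 (Cox7b2) to 0.11 (Ndufa5), and 58 of the 82 were above 0, with a median of 0.02 against 0.01 for all tested genes. The median half-width of their 95% intervals was 0.08. For Cyc1, with the smallest adjusted p, the values were 195 and 200.3 untreated and 212 and 208 treated, a log2 change of 0.08 with an interval of 0.02 to 0.15.

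In the GSK3β line 6 of the 82 genes changed with the inhibitor, 1 upward and 5 downward (7.32%). The background there was 14.9%, with 7.49% higher and 7.44% lower. No gene of complex I or complex II passed. The comparison shares its libraries with the line comparisons above. Median changes were -0.02 for the 82 and -0.01 for all tested genes.

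Cox5a, a nuclear subunit on the matrix side of cytochrome c oxidase, was the gene that rose. Its values were 256 and 262 in the untreated and 259 and 248 in the treated GSK3α libraries, and 294 and 289.9 in the untreated and 341 and 319 in the treated GSK3β libraries. Both treated GSK3β libraries were above both untreated ones, whereas the GSK3α groups overlapped. The log2 change was 0.17 ± 0.0342 (SE, limma adjusted p = 0.00152) in the GSK3β line and -0.03 (adjusted p = 0.784) in the GSK3α line. The difference between these changes passed, at 0.21 ± 0.0484 (SE, limma adjusted p = 0.0149). Without the first treated GSK3β library, the higher of the pair, neither the rise nor the difference passed, and without the second treated GSK3α library the difference did not pass.

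Of the 5 that fell, 2 were low-level isoform genes. Cox7b2, with the values given above, had a log2 change of -0.49 ± 0.159 (SE, limma adjusted p = 0.0451) in the GSK3β line and stood at -0.29 (adjusted p = 0.495) in the GSK3α line. The call in the GSK3β line was lost in 9 of 18 other settings, among them log2(value + 0.5), quantile normalization and each of the 2 untreated GSK3β libraries left out. Ndufa4l2 changed by -0.44 ± 0.1 (SE, limma adjusted p = 0.00527) in the GSK3β line, and its change in the GSK3α line was -0.24 (adjusted p = 0.331). In neither gene did treated and untreated libraries of a line overlap, and the differences between the lines' changes did not pass (log2 -0.20, 95% interval -0.67 to 0.27, and -0.20, interval -0.49 to 0.10).

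The other 3 were abundant subunits with small changes. Atp5e, the ε subunit of the ATP synthase rotor, had 62.9 and 57.7 in the untreated and 61.5 and 58.7 in the treated GSK3α libraries, and 68.8 and 62.2 in the untreated and 55.4 and 58.3 in the treated GSK3β libraries, a change of -0.20 ± 0.0516 (SE, limma adjusted p = 0.012) in the GSK3β line. Uqcrfs1, the Rieske iron-sulfur protein of complex III, had 96.7 and 96.9 in the untreated and 92.6 and 93.8 in the treated GSK3α libraries, and 101 and 96.4 in the untreated and 91.2 and 87.4 in the treated GSK3β libraries, and changed by -0.14 ± 0.0365 (SE, limma adjusted p = 0.0124). Cox7c, a small complex IV subunit, had 265 and 266 in the untreated and 272 and 265 in the treated GSK3α libraries, and 281 and 255 in the untreated and 243 and 247 in the treated GSK3β libraries, and changed by -0.13 ± 0.0371 (SE, limma adjusted p = 0.0257). In each, both treated GSK3β libraries lay below both untreated ones. For Atp5e, Cox7c and, by less, Uqcrfs1 (SD 3.08 against 2.67, n = 2) the 2 untreated GSK3β libraries lay farther apart than the treated ones. In the GSK3α line these genes stood at -0.00, -0.05 and 0.02, and the difference between the lines' changes passed for none of them (adjusted p = 0.120, 0.365 and 0.111, limma).

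Without the first untreated GSK3β library none of the 5 falls passed and Cox5a still did. The calls also differed when another GSK3β library was left out. The share of all tested genes that passed differed too, so these shifts cannot be called particular to the members.

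**Figure D5:**
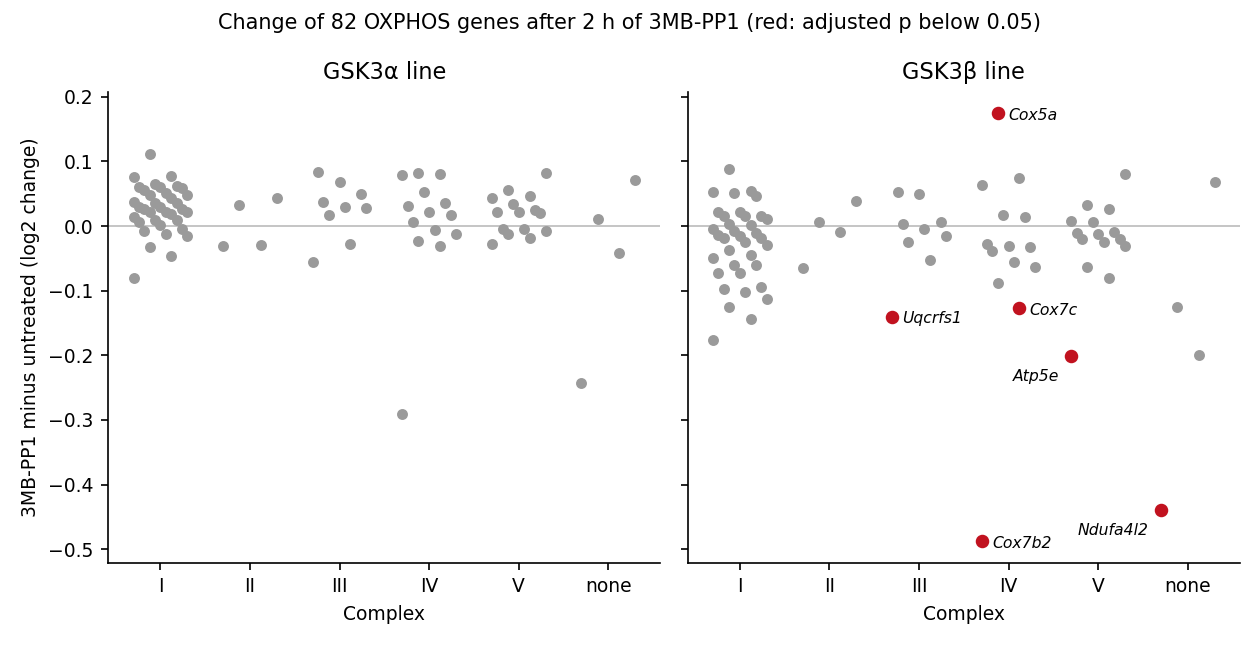
Log2 change of each of the 82 genes after 2 h of 5 µM 3MB-PP1 in the GSK3α line (left) and the GSK3β line (right), grouped by complex, with genes at a limma adjusted p below 0.05 in red and named. No gene is red on the left, and on the right Cox5a is the one red point above 0 and 5 red points lie below it.

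The inhibitor's change differed between the lines in 2 of the 82 genes (2.44%, 1 in each direction), against 6.53% of all tested genes (3.62% higher and 2.9% lower in the GSK3β line). Beside Cox5a, it was Ndufs3, a core subunit of the matrix arm of complex I, with 70.0 and 67.5 in the untreated and 74.0 and 71.1 in the treated GSK3α libraries, and 69.3 and 66.6 in the untreated and 62.4 and 63.0 in the treated GSK3β libraries. Ndufs3 stood at 0.08 (adjusted p = 0.467) in the GSK3α line and -0.11 (adjusted p = 0.0631) in the GSK3β line, neither of which passed, and the difference was -0.19 ± 0.0562 (SE, limma adjusted p = 0.0496). This call was lost in 12 of the other 18 settings tried. Of the 82 differences 65 were below 0, with a median of -0.03 against -0.01 for all tested genes, of which 7538 of 13959 were below 0. The SD of the median over the 82 genes between replicate libraries was 0.028.

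Genes that build or regulate the respiratory chain were counted in the same way, from lists chosen with earlier results of these data known. Of 47 assembly factors with values, 13 were higher and 9 lower in the untreated GSK3β line, and 10 and 10 in treated cells, with a median log2 difference of 0.02 and -0.01. These were 46.8% and 42.6% of the list, against 48.2% and 49% of all tested genes. In the GSK3α line none passed with the inhibitor, and in the GSK3β line 1 rose and 3 fell (8.51%, against 14.9% of all tested genes). Timmdc1, a complex I assembly factor, rose by 0.29 ± 0.0663 (SE, limma adjusted p = 0.00586), with values of 21.0 and 21.1 in the untreated and 21.3 and 20.1 in the treated GSK3α libraries, and 14.5 and 16.04 in the untreated and 19.4 and 18.3 in the treated GSK3β libraries, so that the treated GSK3β libraries lay nearer to the GSK3α line. Cox20, Ndufaf3 and Tmem126b, assembly factors of complex IV and complex I, fell, at -0.33, -0.22 and -0.20. Tmem126b also showed a large line difference, -0.68 without and -0.87 with inhibitor.

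Of 22 regulators, 3 were higher and 6 lower in the untreated GSK3β line, and 1 and 7 in treated cells, with medians of -0.03 and -0.05. The shares, 40.9% and 36.4%, were below those of all tested genes (48.2% and 49%). The largest line difference in the list was that of Peo1, at -0.76 without and -0.85 with inhibitor. Peo1 is one of the neighbours of Ndufb8 described above. Pprc1, a coactivator of the PGC-1 family, had 268 and 272 in the untreated and 247 and 257 in the treated GSK3α libraries, and 166 and 176 in the untreated and 189 and 188 in the treated GSK3β libraries. It was lower in the GSK3β line, at -0.65 ± 0.0331 (SE, limma adjusted p = 1.22e-11) without and -0.42 with inhibitor, it rose with the inhibitor in that line by 0.14 (adjusted p = 0.00709), and the difference between the lines' changes was 0.24 (adjusted p = 0.00422, limma). Yy1 fell with the inhibitor in the GSK3β line, at -0.19 (adjusted p = 0.00125) and stood at -0.12 (adjusted p = 0.143) in the GSK3α line. Ppargc1b, at a mean of 2.29, was higher in the untreated GSK3β line by 0.40, and Ppargc1a was listed without values. Gabpa and Polrmt, the mitochondrial RNA polymerase, were lower there, at -0.16 and -0.17. Nrf1, Esrra and Tfam, which packages mitochondrial DNA, did not pass between the untreated lines (-0.03, 0.04 and -0.04), and Tfam was lower in treated GSK3β than treated GSK3α cells, at -0.11. Inhibitor changes of these last 6 genes passed in neither line.

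Among 18 citric acid cycle genes, 7 were higher and 2 lower in the untreated GSK3β line, and 5 and 3 in treated cells (50% and 44.4%, against the same 48.2% and 49%). With inhibitor Pdha1, of pyruvate dehydrogenase, rose in that line by 0.09 and Dld, a subunit it shares with other complexes, fell, at -0.12. Cytochrome c (Cycs) had 80.2 and 79.5 in the untreated and 81.0 and 86.8 in the treated GSK3α libraries, and 87.7 and 83.3 in the untreated and 87.8 and 87.0 in the treated GSK3β libraries and passed in no comparison, while Hccs, the enzyme that attaches its heme, was lower in the GSK3β line, at -0.43 and -0.45. The 77 mitochondrial ribosomal protein genes had 22 higher and 15 lower in the untreated GSK3β line (48.1%) and a median of 0.03. The 81 cytosolic ribosomal protein genes had 2 higher and 57 lower (72.8%) and a median of -0.12. This difference between the lists was not tested.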

How the data were processed

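The deposited table holds signal values for 48321 genes in 8 libraries: gene counts that the authors estimated with Partek after alignment with TopHat2 to mm10, per the submitters' processing notes, which give no versions, annotation or filters. The values are partly fractional, and the third quartile over the 17488 genes with values was nearly equal in all libraries (46.5 when rounded), so the authors had scaled them and they are not raw counts. Library preparation followed the TruSeq RNA kit, per the labels' protocols.

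Genes with a mean of at least 1 were tested on log2(value + 1) with limma-trend (limma 3.58.1, R 4.3.3). The fit used 1 mean for each of 4 groups and all 8 libraries (4 residual and 14.4 prior degrees of freedom), with Benjamini-Hochberg adjustment over 13959 genes and a two-sided threshold of 0.05. It was tested on simulated data. Fold changes are on this scale, which understates changes of low genes. To estimate the depth, the total of each library was divided by the smallest value found in it, taken as 1 read. Depth limits the precision of low genes such as Cox7b2. Transcript lengths are medians over the principal transcripts of GENCODE M21, and positions and promoters are from RefSeq GRCm38.p6.

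The members, complexes and lists were chosen with earlier results of these data known. Named with all values were up to 6 called genes in each direction of each comparison, every gene called for the difference of the inhibitor changes, and the tissue-restricted isoforms with their partners. The alternatives covered the pseudocount, filter, scaling, test, replicate number, samples in the fit and each library left out. Centring on chromosomes or neighbours, and the comparison with neighbours, were added after the data had been seen.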

Additional observations from a re-analysis of the deposited data

Results flagged for a closer look

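For 2 of the 82 genes the change with 3MB-PP1 differed between the lines by the test of the difference itself (limma adjusted p below 0.05, n = 2 in each group). The change of Cox5a was higher in the GSK3β line by 0.21 on the log2 scale (adjusted p = 0.0149), with both treated GSK3β libraries above both untreated ones and overlapping GSK3α groups. For Ndufs3 the difference was -0.19 (adjusted p = 0.0496), with the treated libraries above the untreated ones in the GSK3α line and below them in the GSK3β line. No other of the 82 genes passed this test, and 12 had an unadjusted p below 0.05.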

How the results depend on the processing

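Over the planned settings, 25 of 37 calls between the untreated lines and 21 of 42 between the treated lines passed in every one, and none reversed. Of the 6 calls with inhibitor in the GSK3β line and the 2 for the difference, 0 passed in every setting. The 0 calls in the GSK3α line stayed 0 in all 21 settings.

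Between the untreated lines, 23 higher and 14 lower genes became 39 higher with libraries scaled to the same sum. That scaling called 59.8% of the 82 in either direction, against 48.9% of all tested genes. Between the treated lines, 21 higher and 21 lower became 13 higher in limma without a trend. That test called 32.9% of the 82 in either direction, against 42.8% of all tested genes. For the inhibitor in the GSK3β line, limma without a trend called 0 higher and 1 lower (1.22%, against 7.02% of all tested genes). The difference of the changes lost its 1 higher call (0) in limma without a trend, where 0.953% of all tested genes passed. Its 1 lower call, Ndufs3, became 0 with log2(value + 0.5), without a filter, with median-ratio scaling, in limma-voom and in limma without a trend, and 3 with scaling to the same sum or quantile normalization. Those last 2 settings each called 4.88% of the 82 in either direction, against 6.71% and 6.53% of all tested genes. The cause was not tested.

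Leaving out 1 library at a time gave 18 to 27 higher and 11 to 14 lower genes between the untreated lines, and 10 to 22 and 14 to 21 between the treated lines, with the 10 without the second treated GSK3α library. For the inhibitor in the GSK3β line it gave 0 to 1 higher and 0 to 8 lower, and for the difference 0 to 1 higher and 0 to 7 lower, with the 7 without the second untreated GSK3β library. Where 1 library is left in a group, it is assumed to vary like the others. The share of all tested genes that passed also differed with the library left out. The shifts in these counts therefore cannot be called particular to the members.

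Same-numbered libraries did not deviate together (correlations of -0.0447 to 0.0271). These correlations cannot show whether such libraries were handled together, and the labels do not say. With the replicate block the counts were 23 and 14, 21 and 21, 0 and 0, 1 and 4, and, for the difference, 1 higher and 0 lower. These were 45.1%, 51.2%, 0%, 6.1% and 1.22% of the 82, against 47.6%, 48.5%, 0.759%, 14.3% and 5.95% of all tested genes.

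Centring on neighbours, added after seeing the data, could be done for 78 members only. Between the untreated lines it called 28, of which 6 were lower (35.9%, against 42.4% of all genes in this setting). Between the treated lines it called 32, of which 11 were lower (41% against 44.6%). It called 2 higher and 2 lower with inhibitor in the GSK3β line (5.13% against 13.1%). For the difference it called 0 lower (1.28% in either direction, against 5.23%). Cox7b2 and Cox7c had fewer than 3 neighbours and were not tested in this setting, so their calls with inhibitor were not lost by the centring. Log2 differences reversed for Ndufb8 (0.0444), Ndufc2 (0.0726) and Sdhb (0.0532) between the untreated lines, and for Sdhb (0.0907), Atp5d (0.00378) and Ndufv1 (0.00972) between the treated lines. Centring on chromosomes reversed Cox8a (0.0875, untreated) and Ndufv1 (0.10, treated). It called 0 lower for the difference (1.22% in either direction, against 7.59% of all genes in this setting). By construction, it removes what a gene shares with its neighbours or chromosome.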
